A study of Homo sapiens with 12 samples.

Results

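MALAT1, NEAT1, KCNQ1OT1 and MEG3 are long noncoding RNAs best known from the cell nucleus, and they were followed here by name as 4 of the 26334 genes in a table of read counts. They were chosen by their own time course in these counts: their share of the reads was already known to be higher after transcription was blocked. Their change over time is therefore described without a test. All 4 passed the filter on low counts, as did 12775 genes in all. The cells were shA673-1c, made from A673, a line grown from an Ewing sarcoma, a tumour driven by the fusion protein EWS::FLI1. They carry a short hairpin RNA against the fusion transcript that doxycycline switches on, and every library came from cells given doxycycline at 1 µg per ml for 4 days. Cells without doxycycline are not analysed here, so knockdown of the fusion is shared by all groups. Actinomycin D, which blocks transcription, was then added at 5 µM, and RNA was taken after 0, 1, 2 and 4 h from 3 biological replicates each, per the labels. The labels do not say whether the replicates were grown apart, so the spread between them may be partly technical, and all libraries come from the same cell line derivative.

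MALAT1 is an abundant RNA of nuclear speckles, bodies rich in splicing factors. NEAT1 is transcribed next to it, and its long form is the scaffold around which the proteins of paraspeckles gather. KCNQ1OT1 is read from the paternal allele, antisense to the potassium channel gene KCNQ1, and silences neighbouring imprinted genes with the help of chromatin modifiers that include polycomb proteins. MEG3 is read from the maternal allele of the imprinted DLK1-MEG3 locus and is spliced. MALAT1 and long NEAT1 are set apart from ordinary polyadenylated RNAs by their 3′ end, which RNase P cuts and which folds into a triple helix of U-rich stretches around an A-rich tract. Once no new RNA is made, transcripts that outlast the average take a growing share of the reads, so every change below is relative to the rest of the library.

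The 4 transcripts are shown by the part of the 3′ end or the internal run of A that tells them apart, because the libraries were made from polyadenylated RNA. The counts hold only the molecules captured in that way, and the levels below are levels of these. A change in capture or in the form of the 3′ end cannot be told apart from a change in the amount of RNA. The positions and sequences come from GENCODE release 29 on GRCh38. The authors' build was hg19, and no hg19 position is given here. In MALAT1 and NEAT1 the capitals mark 2 stretches that both transcripts share. In KCNQ1OT1 they mark its longest run of A, and in MEG3 the polyadenylation signal AATAAA.
MALAT1, chr11:65506017-65506116, plus strand: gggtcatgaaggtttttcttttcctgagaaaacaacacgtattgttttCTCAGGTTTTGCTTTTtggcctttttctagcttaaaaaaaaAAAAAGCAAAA
NEAT1, chr11:65445441-65445540, plus strand: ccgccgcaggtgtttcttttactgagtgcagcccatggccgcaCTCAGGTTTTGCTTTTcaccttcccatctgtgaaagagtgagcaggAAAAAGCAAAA
KCNQ1OT1, chr11:2610697-2610765, minus strand: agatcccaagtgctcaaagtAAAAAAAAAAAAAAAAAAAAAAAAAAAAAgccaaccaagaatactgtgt
MEG3, chr14:100860967-100861026, plus strand: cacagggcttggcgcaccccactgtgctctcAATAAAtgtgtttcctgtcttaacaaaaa

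The stretch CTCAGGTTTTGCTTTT holds a U-rich motif of the triple helix, and AAAAAGCAAAA is the end of the A-rich tract. Searched on the sense strand, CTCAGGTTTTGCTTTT was present in 2 of 29566 annotated long noncoding transcripts, 0.00676%, and these were MALAT1 and NEAT1. AAAAAGCAAAA was present in 90 transcripts, 0.304%. Both stretches were picked because MALAT1 and NEAT1 share them, so their presence in these 2 was set in advance. In NEAT1 the sequence printed is the very end of the long transcript. In MALAT1 it stops 353 bases before the end of the longest annotated form, MALAT1-202, whose last bases are annotated beyond the RNase P cut.

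Annotation differed among the 4 in length, exons and runs of A. The MALAT1 gene spans chr11:65497688-65506516, and its transcript MALAT1-202 is 1 exon of 8708 bases with a longest run of 13 A. NEAT1 spans chr11:65422774-65445540. Its long transcript, NEAT1-202, is 1 exon of 22743 bases with a longest run of 22 A, and its short form, NEAT1-201, has 3441 bases and no run above 5 A. KCNQ1OT1 lies on chr11:2608328-2699994 as 1 exon of 91667 bases and holds 17 runs of at least 10 A. MEG3 lies on chr14:100779410-100861031, and its form MEG3-206 has 9 exons, 1835 bases, no run above 5 A and AATAAA in its last 60 bases. Of all annotated long noncoding transcripts, 7.4% hold a run of at least 10 A and 31.1% hold AATAAA in their last 60 bases. The table gives 1 count per symbol, so the long and short forms of NEAT1, or the 48 annotated transcripts of MEG3, cannot be told apart.

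Total counts lay between 9381855 and 10929000 per library. Levels are given as CPM, counts per 1000000 of the library's total after scaling by the TMM method of edgeR, and are compared between times for the same gene only. Of 8 Ewing sarcoma markers, 7 were detected, and CD99, a defining surface marker, had 0 counts in every library. How the table treats CD99, which lies on both sex chromosomes, is not given in the sources used here, so this 0 is no measure of its expression. At 4 h against 0 h, 3 of the 7 markers were lower, 1 was higher and 3 were not called. The median log2 change of the 7 was 0.14. Of all tested genes 24.6% were lower and 23.3% higher. With libraries scaled to their totals or to ribosomal protein mRNAs, 0 markers were higher, and the median was -0.0059 or -0.22. With replicate number added to the fit, 2 markers were higher. FLI1, part of which is also held in the fusion transcript, fell from 20.4 ± 1.05 CPM at 0 h to 7.42 ± 0.639 at 4 h (SD, n = 3, edgeR adjusted p = 7.016e-05). Of 11 markers of blood, epithelium, endothelium and liver, 2 passed the filter, and their summed level was 10.9 to 31.7 CPM of the raw totals. Most of that was the globin gene HBB, at 22.6 ± 4.35 CPM at 0 h and 10.6 ± 3.72 at 4 h (SD, n = 3, edgeR adjusted p = 0.006313). Its part in the results was not tested. In RNA from whole cultures, fewer cells of a type and less RNA per cell cannot be told apart.

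MALAT1 stood near its starting level for the first hour and was far above it at 4 h. At 0 h the 3 replicates held 159, 175 and 148 CPM. At 1 h they held 142, 175 and 209 CPM, below, at and above their own starting values in that order. At 2 h the values were 208, 284 and 264 CPM, and no library overlapped those at 0 h. At 4 h they were 491, 640 and 709 CPM, each more than every library at 0, 1 or 2 h. The fitted log2 change from 0 h was 0.13 (SE 0.16) at 1 h, or -0.0092 without replicate 3 at 1 h. It was 0.65 (SE 0.16) at 2 h and 1.93 (SE 0.16) at 4 h. The last is a 3.82-fold higher share, with 3.10, 3.65 and 4.78-fold in replicates 1, 2 and 3. Only 3 of the 12775 tested genes had a larger fitted increase, and the 5th and 95th percentiles of all genes were -1.79 and 0.59 on the log2 scale. Of the whole log2 change, 66.4% fell between 2 and 4 h, 27.0% between 1 and 2 h and 6.60% in the first hour.

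NEAT1, the neighbour of MALAT1, differed from it in timing. The replicates held 174, 200 and 154 CPM at 0 h. At 1 h they held 162, 153 and 239 CPM, and at 2 h 177, 154 and 170 CPM. Both times overlapped the start. Replicate 3 at 1 h was the highest library before 4 h, and without it the fitted log2 change at 1 h was -0.15 in place of 0.07 (SE 0.15). Without replicate 3 at 0 h it was -0.02. At 4 h NEAT1 held 394, 347 and 435 CPM, above every earlier library. The fitted log2 change was -0.07 (SE 0.15) at 2 h, or 0.03 without replicate 2 at 0 h, and 1.16 (SE 0.15), or 2.23-fold higher, at 4 h. Between 2 and 4 h the change was 1.23 (SE 0.15), close to the 1.28 (SE 0.16) of MALAT1 over the same interval. Nearly all of the difference between these neighbours was thus present by 2 h, when MALAT1 was 0.65 above its start and NEAT1 0.07 below.

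KCNQ1OT1 was the scarcest of the 4 in counts, with 35 to 101 reads per library at 0 h and 147 to 152 at 4 h. Counting error alone gives such counts a coefficient of variation of 9.95% at 101 reads and 16.9% at 35. Its libraries at 0 h were also the most spread, at 9.53, 4.90 and 3.08 CPM. At 1 h they were close together, at 6.10, 5.65 and 5.38 CPM. At 2 h the values were 10.6, 8.49 and 7.14 CPM, which overlap the start through replicate 1 at 0 h. At 4 h they were 17.2, 15.9 and 15.6 CPM, above all earlier libraries. The fitted log2 change was -0.03 (SE 0.31) at 1 h, 0.59 (SE 0.30) at 2 h and 1.48 (SE 0.29), or 2.79-fold higher, at 4 h. Their size rests on the libraries at 0 h. Without replicate 1 at 0 h the change was 0.53 at 1 h, 1.14 at 2 h and 2.03 at 4 h, and without replicate 3 at 0 h it was -0.35, 0.27 and 1.15. Without replicate 3 at 1 h the change at 1 h was 0.02. From 2 to 4 h, an interval that uses no 0 h library, the change was 0.89 (SE 0.28). KCNQ1, which KCNQ1OT1 overlaps on the opposite strand, had 0 counts in all 12 libraries, so no reads were assigned to the sense gene at any time.

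MEG3 was the only member whose libraries at 1 h lay apart from those at 0 h. It stood at 133, 98.2 and 85.7 CPM at 0 h and at 190, 146 and 190 CPM at 1 h. At 2 h the replicates held 209, 145 and 142 CPM, on average no higher than an hour before. At 4 h they held 286, 201 and 219 CPM, and replicate 1 at 2 h lay within that range. Within replicates 1, 2 and 3 the log2 change was 0.65, 0.56 and 0.73 from 0 to 2 h. From 2 to 4 h it was 0.45, 0.47 and 0.62, so each replicate was higher at 4 h than at 2 h. The fitted log2 change was 0.73 (SE 0.19) at 1 h, 0.65 (SE 0.19) at 2 h and 1.15 (SE 0.19), or 2.23-fold higher, at 4 h. The first hour thus held 63.2% of the change and the interval from 2 to 4 h held 44.0%. Between 1 and 2 h the fitted change was -0.08 (SE 0.19), smaller than its SE. At 1 h the change ranked 95th among the 12775 genes, whose 95th percentile was 0.31. MEG3 and NEAT1 ended at nearly the same log2 change, 1.15 and 1.16, by different courses.

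**Figure D1:**
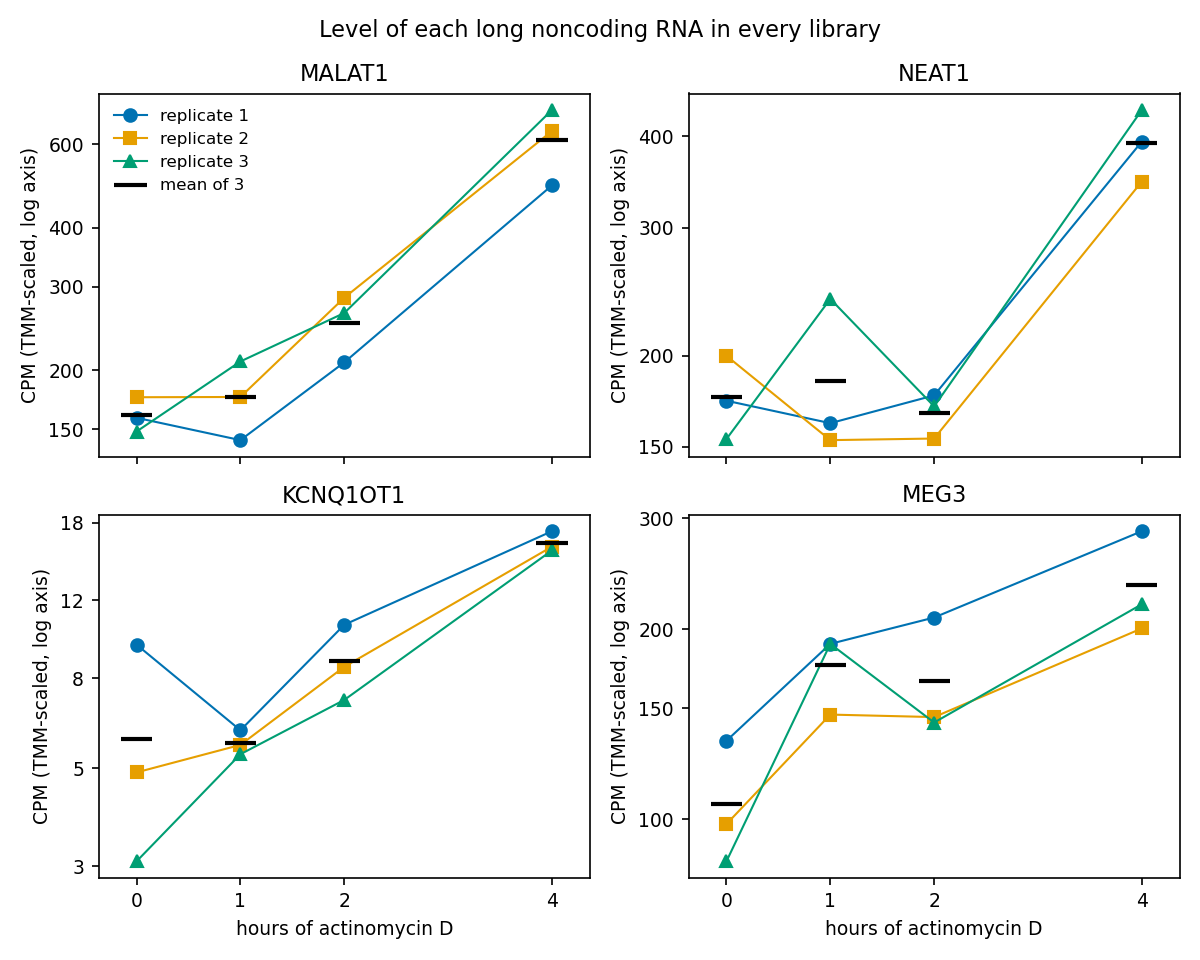
Level of each RNA in every library, as TMM-scaled CPM on a log axis, against hours of actinomycin D (lines join libraries of the same replicate number, black bars are means of 3). At 4 h every library of all 4 RNAs lies above its 0 h libraries, and at 1 h only MEG3 is clear of them.

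At 4 h the 3 libraries lay above the 3 at 0 h for 4 of 4 members, against 27.9% of all tested genes. At 2 h this held for MALAT1 and MEG3, against 13.3%, and at 1 h for MEG3 alone, against 4.45%. Since the time course chose the members, nothing is read from these counts. Ordered by fitted log2 change at 4 h, MALAT1 (1.93, SE 0.16) was followed by KCNQ1OT1 (1.48, SE 0.29), NEAT1 (1.16, SE 0.15) and MEG3 (1.15, SE 0.19). By the mean change of their count ratio over the 3 replicates, given below, no neighbours in this order differed by more than its SD. MALAT1 did exceed NEAT1 and MEG3 by more than that SD.

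How far these values lie above 0 depends on what the libraries are scaled to, since no spike-in RNA was part of the table. With the ribosomal protein mRNAs held level, the log2 change at 4 h was 1.56 for MALAT1, 1.11 for KCNQ1OT1 and 0.79 for both NEAT1 and MEG3. With plain library totals, the values were 1.78 for MALAT1, 1.33 for KCNQ1OT1, 1.01 for NEAT1 and 1.00 for MEG3. The median of all tested genes moved with them, from 0.05 under TMM to -0.10 under totals and -0.31 under ribosomal scaling. All 4 RNAs stood above their start at 4 h under each of these scalings.

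**Figure D2:**
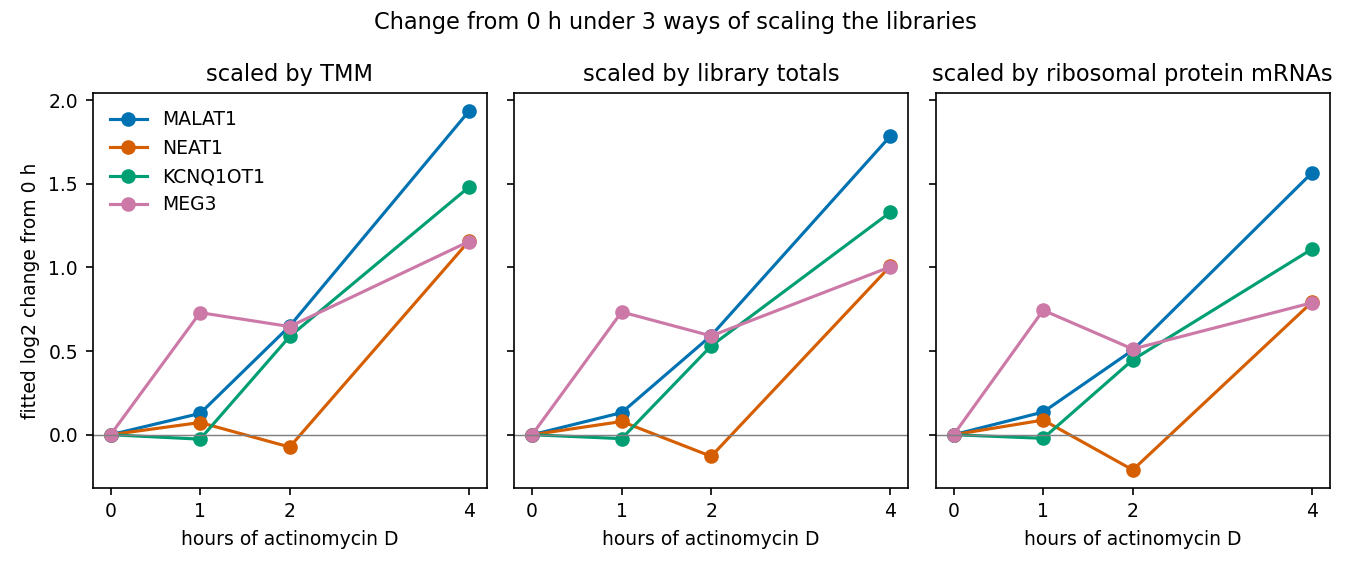
Fitted log2 change from 0 h against hours of actinomycin D, under TMM scaling, library totals and scaling to ribosomal protein mRNAs (1 line per RNA, points are fits over 3 replicates). At 4 h MALAT1 moves from 1.93 to 1.56 and NEAT1 from 1.16 to 0.79 between the outer panels, and MEG3 keeps its early step.

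Ratios of 2 members within a library do not depend on scaling. The ratio of MALAT1 to NEAT1 counts was 0.914, 0.876 and 0.965 in replicates 1, 2 and 3 at 0 h. It was 1.18, 1.85 and 1.55 at 2 h and 1.25, 1.84 and 1.63 at 4 h. Every library from 2 h on thus lay above every library at 0 h, and the mean log2 change of 0.71 ± 0.36 at 2 h was near the 0.76 ± 0.31 at 4 h (SD, n = 3). At 1 h the ratio was below its start in 2 replicates and above it in replicate 2.

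The ratio of MALAT1 to MEG3 moved down and then up. At 1 h it was 0.630, 0.671 and 0.636 times its value at 0 h, a mean log2 change of -0.63 ± 0.05 (SD, n = 3) and the tightest agreement between replicates of any pair at that time. At 2 h it was back near its start, at -0.01 ± 0.22, and at 4 h it was 0.76 ± 0.20 above it. The ratio of NEAT1 to MEG3 was 0.654, 0.514 and 0.704 times its starting value at 1 h and 0.649, 0.521 and 0.668 times at 2 h. It was 1.06, 0.849 and 1.11 times at 4 h, a mean log2 change of -0.00 ± 0.20. All replicates showed the early low values, and at 4 h they lay on both sides of the start. Pairs with KCNQ1OT1 spread more, as the 0 h counts of that RNA do. At 4 h the mean log2 change was 0.29 ± 0.44 for MALAT1 to KCNQ1OT1, -0.47 ± 0.69 for NEAT1 to KCNQ1OT1 and 0.47 ± 0.64 for KCNQ1OT1 to MEG3, each smaller than its spread.

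**Figure D3:**
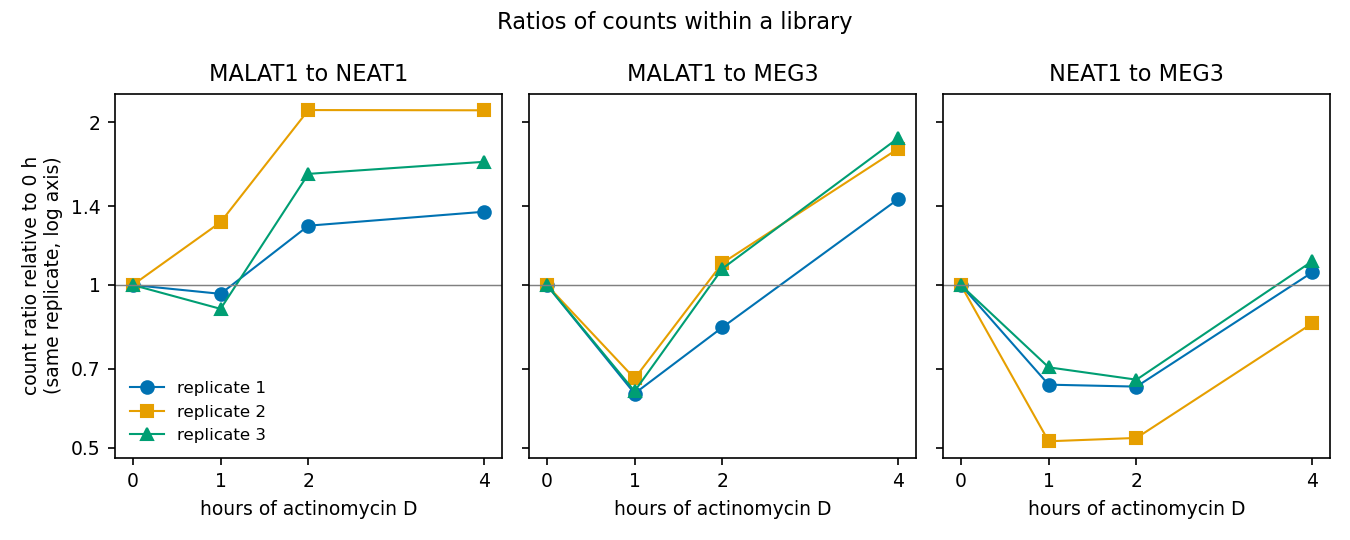
Ratio of the counts of 2 RNAs in the same library, relative to the 0 h library of the same replicate, on a log axis against hours of actinomycin D. MALAT1 to NEAT1 reaches 1.29 to 2.11 at 2 h and stays there, MALAT1 to MEG3 is at 0.630 to 0.671 at 1 h, and NEAT1 to MEG3 returns to 0.849 to 1.11 at 4 h.

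Levels at equal time also differed between replicates, a comparison that had no part in the choice of members. In a model of time and replicate number, 43.3% of all tested genes differed between replicates by edgeR's F test. MALAT1 was lowest in replicate 1 at 3 of 4 times, and its geometric means over the 4 times were 219, 274 and 276 CPM (1.27-fold range, edgeR adjusted p = 2.838e-05). MEG3 was highest in replicate 1 at 4 of 4 times, with 197, 143 and 150 CPM (1.38-fold range, edgeR adjusted p = 4.184e-07). KCNQ1OT1 was also highest in replicate 1 at 4 of 4 times, with 10.1, 7.82 and 6.55 CPM (1.45-fold range, edgeR adjusted p = 0.01214), and the call was lost without replicate 1 at 0 h (edgeR adjusted p = 0.118). NEAT1 had 210, 201 and 229 CPM and a 1.15-fold range (edgeR adjusted p = 0.1161). It was thus not called, but this was not stable. Without replicate 2 or 3 at 0 h the edgeR adjusted p was 0.00242 or 0.000225. Without filtering low counts it was 7.7e-06, at a log2 range of 0.198 against 0.197 with the filter. That setting also lowered the edgeR adjusted p of MALAT1 (1.18e-22), KCNQ1OT1 (0.000117) and MEG3 (7.49e-31). Replicate 1 was therefore low for MALAT1 and high for both imprinted RNAs, and the replicates' order for NEAT1 was neither.

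Genes with the most similar time courses were sought among 10258 genes with at least 5 CPM on average over the 12 libraries, by the root mean square (RMS) difference of log2 CPM over 12 libraries after each gene's 0 h mean was subtracted. The profiles nearest to MALAT1 were those of ANKRD36C (RMS 0.335), ANKRD36 (0.409) and ANKRD36B (0.438), near-identical ankyrin repeat genes whose reads may be shared. The median gene lay 1.00 away. ANKRD36C, at a log2 change of 1.76 at 4 h, and ANKRD36B, at 1.39, were also nearest to KCNQ1OT1 (RMS 0.368 and 0.370), followed by CCDC84 (0.407). ANKRD36B and CCDC84 were below that mean at 0 h, at 4.56 and 3.68 CPM, and reached it through their later libraries. For NEAT1 the nearest were UCKL1 (RMS 0.280), a uridine-cytidine kinase, DPP7 (0.283), a dipeptidyl peptidase, and TPM2 (0.284), a tropomyosin. These reached log2 changes of 0.79, 0.71 and 0.76 at 4 h, short of NEAT1's 1.16, against a median distance of 0.603. MEG3 had the closest neighbours of the 4, in SH3BP5-AS1 (RMS 0.216), CCDC84 (0.217) and GNB3 (0.222), a G protein beta subunit. Like MEG3, these were already 0.87, 0.80 and 0.91 above their start on the log2 scale at 1 h. The members lay 0.430 (KCNQ1OT1 and MEG3) to 0.612 (MALAT1 and MEG3) from each other, so none was among another's 3 nearest.

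Other transcripts were read from 9 lists chosen around the members, with 144 tested genes in all. At 4 h against 0 h, 45 of them were lower and 32 higher by edgeR's quasi-likelihood test with Benjamini-Hochberg adjustment, and their median log2 change was -0.03. Among all tested genes 24.6% were lower and 23.3% higher, with a median of 0.05. With the replicate block 58 of the listed genes were lower and 45 higher, against 3934 and 4443 of all 12775 tested genes. Counts with the replicate block in each list below are to be read against these. The split between lower and higher follows the scaling. Of all genes, 3961 were lower and 1347 higher under library totals, and 5725 were lower and 153 higher under ribosomal scaling, against 3148 and 2975 under TMM. Of the 144 listed genes, 12 were higher under library totals and 0 under ribosomal scaling.

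Most of the other nuclear long noncoding RNAs tested were not called, which does not show that they stayed level. DLEU2 and HOTAIR, for example, had at most 12 and 15 reads in a library, and SEs of 0.37 and 0.36. Of 24 in the list, 14 were tested, and 1 was lower and 1 higher, against 24.6% and 23.3% of all tested genes. Their median log2 change was 0.10 under TMM but below 0 under library totals and ribosomal scaling. PVT1, which neighbours MYC, was higher at 19.6 ± 2.13 CPM against 12.1 ± 1.71 (SD, n = 3, 1.62-fold, edgeR adjusted p = 0.0005816), a call lost under ribosomal scaling (edgeR adjusted p = 0.0727). MIAT was at 4.31 ± 1.51 CPM against 2.15 ± 0.419 (SD, n = 3, edgeR adjusted p = 0.05908), and with the replicate block the edgeR adjusted p was 0.0015. With that block 3 of the 14 were higher, OIP5-AS1 being the other (log2 change 0.25, edgeR adjusted p = 0.00268). TUG1 was at 98.9 ± 1.45 CPM at 0 h and 93.5 ± 4.95 at 4 h (SD, n = 3) and was not called (edgeR adjusted p = 0.373).

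MEG9, a long noncoding RNA of the same imprinted locus as MEG3, went the opposite way. It had 56, 62 and 40 reads in replicates 1, 2 and 3 at 0 h, 10, 13 and 8 at 1 h, 9, 2 and 2 at 2 h and 5, 1 and 3 at 4 h. All libraries from 1 h on were below all those at 0 h. The summed counts fell from 158 to 9, a 16.6-fold lower share of the totals with an exact 95% interval of 8.55 to 37.1 for counting error only (edgeR adjusted p = 3.291e-05). MEG8, from the same locus, was at 1.88 ± 0.826 CPM at 0 h and 1.79 ± 0.380 at 4 h (SD, n = 3, edgeR adjusted p = 0.8754). DLK1, the paternally expressed coding gene of the locus, was barely detected, at 1.52 ± 0.939 and 1.63 ± 0.888 CPM (SD, n = 3, edgeR adjusted p = 0.9036). Of 7 tested genes of this domain 2 were lower and 1 higher, against 24.6% and 23.3% of all tested genes. Their median log2 change was -0.07. The replicate block gave 3 lower and 1 higher. WDR25 was lower (log2 change -0.99, SE 0.18, edgeR adjusted p = 0.000509). SLC25A29, a mitochondrial carrier, was higher (0.46, SE 0.12, edgeR adjusted p = 0.005917) but was not called under library totals or ribosomal scaling (edgeR adjusted p = 0.064 and 0.557).

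In the imprinted domain of KCNQ1OT1, 5 of the 15 listed genes in the table, KCNQ1 and IGF2 among them, had no count in any library. CDKN1C, a cell cycle inhibitor that KCNQ1OT1 is known to silence, had at most 6 reads in a library and was not tested. Of the 7 tested, 4 were higher and 1 lower under TMM, against 23.3% and 24.6% of all tested genes. Their median log2 change was 0.26. Under ribosomal scaling 0 were higher and 2 lower, and the median was below 0. CD81, a tetraspanin, was higher at 302 ± 8.56 CPM against 221 ± 7.39 (SD, n = 3, edgeR adjusted p = 2.595e-05), and SLC22A18, a transporter, was 1.74-fold higher (edgeR adjusted p = 0.009647). Under ribosomal scaling neither was called (edgeR adjusted p = 0.377 for CD81 and 0.137 for SLC22A18), and SLC22A18 was not called without replicate 1 at 4 h (edgeR adjusted p = 0.053). TSSC4 was 1.67-fold lower (edgeR adjusted p = 0.001844).

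The genes around MALAT1 and NEAT1 on chromosome 11 moved in both directions under TMM. Of 12 tested, 3 were lower and 3 higher, against 24.6% and 23.3% of all tested genes. The median of 0.12 was below 0 under library totals and ribosomal scaling. Under ribosomal scaling 5 were lower and 0 higher. CDC42EP2, an effector of the GTPase CDC42, was 5.94-fold lower (edgeR adjusted p = 6.516e-05) and DPF2, a chromatin remodelling subunit, 1.89-fold lower (edgeR adjusted p = 1.238e-06). FRMD8 was at 102 ± 2.15 CPM at 0 h and 72.7 ± 3.48 at 4 h (SD, n = 3, edgeR adjusted p = 0.0002941). EHBP1L1 was 1.36-fold higher (edgeR adjusted p = 0.0001444), a call lost under ribosomal scaling (edgeR adjusted p = 0.426). With the replicate block 5 of the 12 were higher.

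mRNAs for the proteins of the bodies that these RNAs occupy were also read. Of 31 paraspeckle proteins tested, 6 were lower and 10 higher, against 24.6% and 23.3% of all tested genes. Their median log2 change was 0.08 under TMM. That median was below 0 under library totals and ribosomal scaling, where 4 and 0 were higher. The replicate block gave 9 lower and 14 higher. By adjusted p, ZNF24 came first among those lower, at 31.3 ± 2.73 CPM against 92.6 ± 6.43 (SD, n = 3, edgeR adjusted p = 1.351e-08), followed by CPSF7 (log2 change -0.87, edgeR adjusted p = 2.436e-07), a subunit of an mRNA 3′ end cleavage factor, and HNRNPF (-0.48, edgeR adjusted p = 3.39e-05). NONO and SFPQ, core paraspeckle proteins, were looked up after their values had been seen. NONO was 1.16-fold higher (edgeR adjusted p = 0.009551) and SFPQ was at 356 ± 52.4 and 348 ± 55.2 CPM (SD, n = 3, edgeR adjusted p = 0.8641).

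Of 24 nuclear speckle proteins, 10 were lower and 5 higher, against 24.6% and 23.3% of all tested genes, with a median of -0.15. Under library totals 1 was higher, under ribosomal scaling 17 were lower and 0 higher, and without replicate 3 at 4 h 3 were higher. The replicate block gave 14 lower and 6 higher. DYRK1A, a kinase of splicing factors, was 4.06-fold lower (edgeR adjusted p = 9.964e-09), SRSF5 1.66-fold lower (edgeR adjusted p = 6.448e-05) and RBM25 1.38-fold lower (edgeR adjusted p = 0.0001278). SRSF5 and RBM25 act in splicing.

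mRNAs for factors that process the 3′ end of MALAT1 or write and read m6A on RNA had the lowest median of the 9 lists, -0.63. Of 17 tested, 9 were lower and 2 higher, against 24.6% and 23.3% of all tested genes, whose median was 0.05. With the replicate block 10 were lower and 4 higher. None was higher under library totals or ribosomal scaling, and 1 was higher without replicate 1, 2 or 3 at 0 h or replicate 1 or 3 at 4 h. RPP38, a protein of RNase P, was at 2.57 ± 0.651 CPM against 16.2 ± 0.771 (SD, n = 3, 6.31-fold lower, edgeR adjusted p = 9.658e-08). WTAP, a subunit of the m6A methyltransferase, was 1.85-fold lower (edgeR adjusted p = 1.066e-06) and YTHDC1, a nuclear reader of m6A, 1.78-fold lower (edgeR adjusted p = 2.436e-06). METTL16, a protein that binds the MALAT1 triple helix and was looked up after its value had been seen, was 1.70-fold lower (edgeR adjusted p = 1.255e-05).

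Of 22 nuclear RNA decay factors, 9 were lower and 3 higher, against 24.6% and 23.3% of all tested genes, with a median of -0.22. Under library totals 14 were lower and 1 higher, and under ribosomal scaling 16 and 0. The replicate block gave 12 lower and 4 higher. RBM7, which brings the nuclear exosome targeting complex to its RNAs, was 3.63-fold lower (edgeR adjusted p = 2.985e-07). ZCCHC8, the scaffold of the same complex, was 2.22-fold lower (edgeR adjusted p = 1.876e-06) and ZCCHC7, of the TRAMP complex, 2.28-fold lower (edgeR adjusted p = 9.195e-07). Of 12 genes of polycomb repressive complex 2, 5 were lower and 3 higher, against the same shares of all tested genes, with a median of -0.26. Under both other scalings 0 were higher, and under ribosomal scaling 8 were lower. Only 1 was higher without replicate 2 at 0 h or replicate 3 at 4 h. The replicate block gave 6 lower and 4 higher. The accessory subunits AEBP2, JARID2 and MTF2 were 2.44, 2.29 and 2.02-fold lower (edgeR adjusted p = 4.504e-06, 1.361e-05 and 4.192e-06). These are mRNA levels, and no protein was measured.

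**Figure D4:**
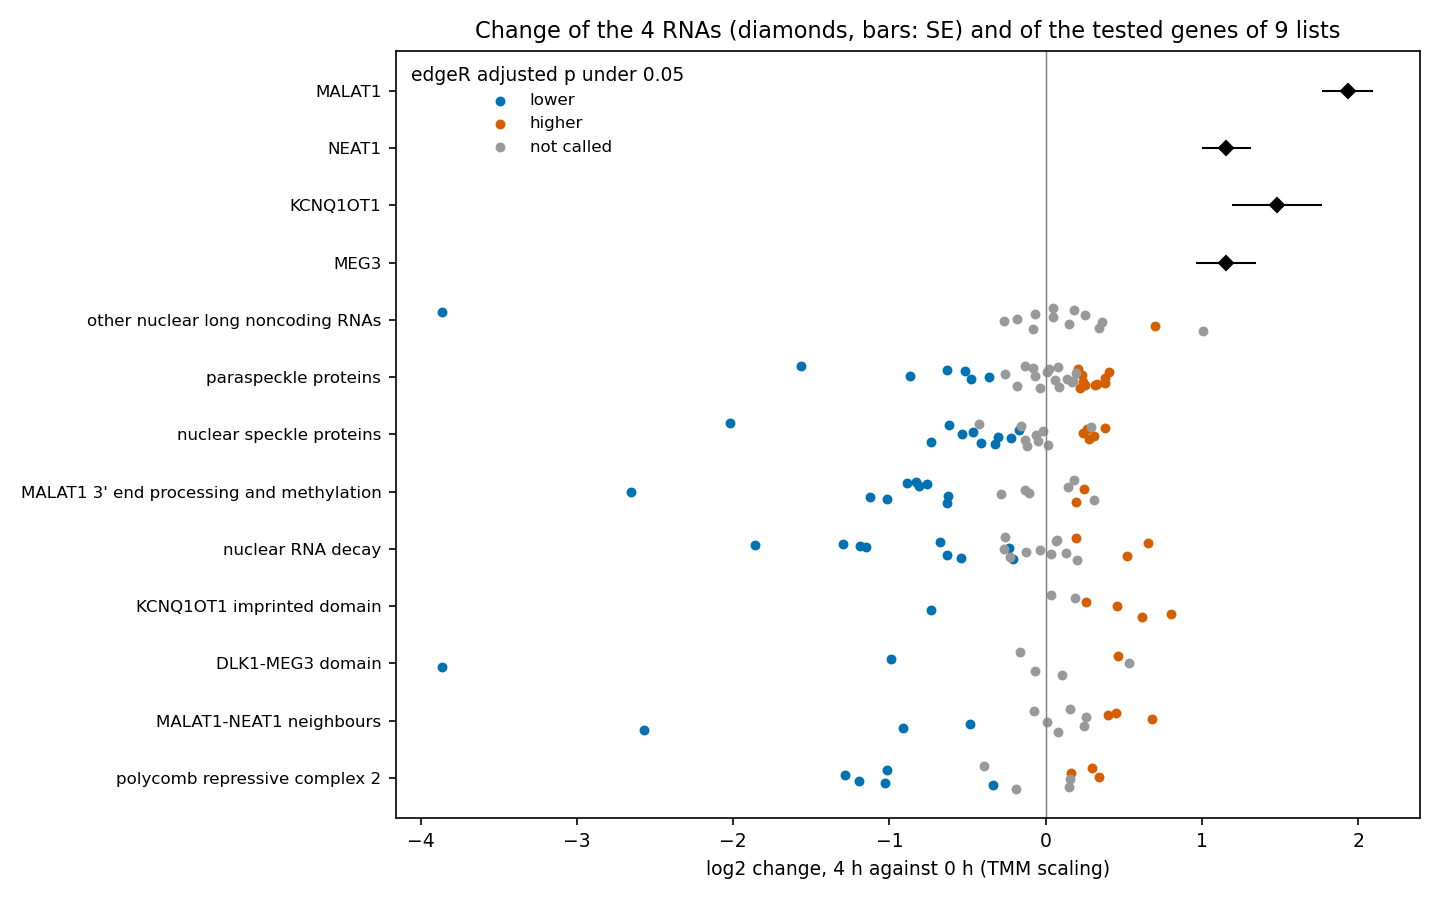
Log2 change at 4 h against 0 h under TMM scaling for the 4 RNAs (diamonds with SE) and for each tested gene of 9 lists (dots, coloured by edgeR call). The 4 RNAs lie between 1.15 and 1.93, and the listed genes between -3.86 (MEG9) and 1.00 (MIAT).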

How the data were processed

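The authors deposited raw read counts per gene symbol for 12 libraries of polyadenylated RNA. A stranded TruSeq mRNA kit was used, per the labels' protocols. The submitters' processing notes name FastQC, STAR and hg19 but no versions. The counting program, annotation and strand setting are not given in the sources used here, so reads of overlapping or near-identical genes may have been shared. Of 26334 genes, 7175 had no count. Replicates of a time differed by more than sampling noise (chi-square per degree of freedom 4.13 to 15.2).

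Counts were fitted with edgeR 4.0.16 in R 4.3.3 (filterByExpr, TMM factors 0.922 to 1.05, quasi-likelihood test over all 12 libraries, Benjamini-Hochberg over 12775 genes, threshold 0.05). Fold changes are fitted, and SE is that of the fitted log2 change. It comes from the fit without the replicate block, so differences between replicates enter it. Alternatives were library totals, ribosomal protein scaling, DESeq2 1.42.0, no filter, a replicate block and leaving out each library. Tests were checked on simulated data with 200 changed genes. The simulated 4 h comparison held no replicate effect, so that check does not cover the scaling or the pairing of these libraries. The members, lists and alternatives were chosen with earlier results of these data known. Per list, the 3 tested genes with the smallest adjusted p at 4 h are named, with FRMD8, KCNQ1, CDKN1C and DLK1, and genes said to be looked up later; FLI1, HBB, CD99, IGF2, MEG8, TUG1 and OIP5-AS1 were also named after their values were seen. Another gene that was to be named is not reported here. Replicate numbers in the labels are shared by the times and paired the libraries: deviations from the time means correlated at 0.263 to 0.649 for the same number and at -0.501 to 0.160 for different numbers.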

Additional observations from a re-analysis of the deposited data

How the results depend on the processing

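All fitted log2 changes of the 4 RNAs at 4 h against 0 h stayed above 0 under every alternative run. Ribosomal scaling gave lower values: at 4 h against 0 h 1.56 for MALAT1 and 0.79 for both NEAT1 and MEG3, at 4 h against 2 h 1.06 for MALAT1, 1.00 for NEAT1, 0.66 for KCNQ1OT1 and 0.28 for MEG3, and at 2 h against 0 h 0.51 for MEG3. Library totals gave 0.41 for MEG3 at 4 h against 2 h. Leaving out each library in turn gave 1.16 to 1.42 for MALAT1 and 0.34 to 0.71 for MEG3 at 4 h against 2 h, 0.27 to 1.14 for KCNQ1OT1 and 0.44 to 0.86 for MEG3 at 2 h against 0 h, and 0.99 to 1.35 for MEG3 at 4 h against 0 h. With the replicate block the changes at 4 h were 1.92 for MALAT1, 1.15 for NEAT1, 1.50 for KCNQ1OT1 and 1.16 for MEG3, and all 6123 genes called without the block were called with it, when 3934 were lower and 4443 higher.

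The log2 range between replicates was 0.20 for NEAT1 without the filter (called, edgeR adjusted p = 7.7e-06), 0.066 to 0.34 when libraries were left out, and 0.33 to 0.71 for KCNQ1OT1. Ribosomal scaling gave 5725 genes lower and 153 higher, with 79 and 0 in the 9 lists, and library totals gave 1347 higher, with 12 in the lists. The cause was not tested. The low counts of KCNQ1OT1 and MEG9 limit their precision.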
